A study of Homo sapiens with 4 samples.

Results

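The expression of 9 genes of MHC class I antigen presentation was examined in RNA-seq data of HeyC2 and SKOV3, which are cell lines of human ovarian cancer. The genes were listed by symbol and comprised the heavy chains HLA-B, HLA-C and HLA-E, the light chain B2M, the peptide transporter and loading genes TAP1, TAP2 and TAPBP, the trimming peptidase ERAP1 and the transcriptional activator NLRC5. All 9 were found among the 26506 gene symbols of both deposited tables. Each cell line was transfected with 3 μg of the pCMV6/TET1 plasmid, which carries full-length TET1, a methylcytosine dioxygenase (TET1-reprogrammed cells), or with 3 μg of the empty plasmid (control cells). All 4 cultures, controls included, were then kept under 400 μg/ml Geneticin, and 1 library was sequenced per condition, so no difference given here has a replicate check. The labels do not say whether the transfected cells were 1 clone or a pool.

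MHC class I molecules display short peptides of the cell's own proteins at the surface, where CD8+ T cells and natural killer cells read them. The proteasome makes the peptides, TAP1 and TAP2 together pump them into the endoplasmic reticulum, ERAP1 trims them there, and TAPBP (tapasin) holds the empty class I molecule beside the transporter while it is loaded. The heavy chain needs B2M to leave the endoplasmic reticulum. NLRC5 acts at class I promoters with the RFX, NF-Y and CREB/ATF factors, and interferon raises many genes of the pathway through IRF and STAT factors. Loss of class I presentation is a well-known route of immune escape in carcinomas, and some class I genes can be silenced by DNA methylation.

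The promoter stretches below are shown because they hold the letters through which this pathway is classically switched on, and because the genes described next can be read against them. Each runs 5′ to 3′ over the 150 bases before an annotated start and comes from RefSeq on GRCh38.p14. Of the 9 genes, 7 had a promoter in that table. Capitals mark 2 kinds of match: GAAANNGAAA or its reverse complement (an interferon-stimulated response element, ISRE), and the pair TGACG and ATTGG (parts of the X2 and Y boxes) in that order with 18 to 22 bases between.
HLA-B, chr6:31357180-31357329, minus strand: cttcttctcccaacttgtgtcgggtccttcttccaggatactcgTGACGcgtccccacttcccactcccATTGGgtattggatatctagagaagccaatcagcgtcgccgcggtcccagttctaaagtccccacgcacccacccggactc
HLA-C, chr6:31272093-31272242, minus strand: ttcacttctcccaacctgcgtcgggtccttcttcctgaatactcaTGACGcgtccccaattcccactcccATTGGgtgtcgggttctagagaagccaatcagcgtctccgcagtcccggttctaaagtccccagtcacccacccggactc
B2M, chr15:44711367-44711516, plus strand: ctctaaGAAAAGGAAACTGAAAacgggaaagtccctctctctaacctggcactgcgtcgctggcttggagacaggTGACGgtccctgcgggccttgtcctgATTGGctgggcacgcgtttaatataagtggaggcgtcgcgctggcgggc
TAP1, chr6:32853705-32853854, minus strand: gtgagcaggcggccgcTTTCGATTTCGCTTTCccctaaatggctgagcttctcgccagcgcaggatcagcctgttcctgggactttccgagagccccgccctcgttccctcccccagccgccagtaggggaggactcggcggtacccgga
TAP2, chr6:32838740-32838889, minus strand: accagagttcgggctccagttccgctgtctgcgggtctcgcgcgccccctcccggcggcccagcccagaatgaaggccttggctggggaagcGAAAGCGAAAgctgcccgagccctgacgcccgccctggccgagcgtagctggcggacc
TAPBP, chr6:33314079-33314228, minus strand: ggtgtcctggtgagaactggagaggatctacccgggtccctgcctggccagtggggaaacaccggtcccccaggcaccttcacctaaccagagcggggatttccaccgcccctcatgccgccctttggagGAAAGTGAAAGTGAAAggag
The X2 and Y pair stood before HLA-B, HLA-C and B2M, 3 of the 7 genes, with 20, 20 and 21 bases between its parts, and in 0.248% of the 35116 promoters of the table over the 250 bases before the start. The ISRE letters stood before B2M, TAP1, TAP2 and TAPBP, 4 of the 7 genes, and in 3.02% of all promoters. In B2M, TAP1 and TAPBP a pair of overlapping matches formed 1 run. Neither was found before ERAP1, and HLA-E and NLRC5 were not in the table. The pair was chosen after the sequences and the values of these genes were seen, so its counts are a description. A match of letters is not a bound site. Only exact letters were sought, so a gene without a match, HLA-B and HLA-C for the ISRE included, may still hold a variant form.

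Values were FPKM, fragments scaled by transcript length and by sequencing depth. They ran on different scales in the 2 libraries of a line: the authors' TET1 columns were multiplied by a constant, 3.23 in HeyC2 and 1.35 in SKOV3, which set GAPDH equal to its control (5417 FPKM in both HeyC2 libraries and 2248 FPKM in both SKOV3 libraries). The change of a gene is therefore given as log2((TET1 + 1)/(control + 1)) minus the median of that quantity over all genes with a mean of at least 1 FPKM. That median was 1.61 over 12993 genes in HeyC2 and 0.59 over 13339 genes in SKOV3. A gene was called higher or lower past 1.5-fold on this relative scale. FPKM carry no sequencing depth of their own. The depth was estimated by asking at which number of fragments the low FPKM values become whole fragments, which gave 6517363 to 7369436 fragments per library. The counting intervals (95%, exact binomial) rest on this estimate and are centred on the ratio without the pseudocount, minus the median given above. They cover counting error only, not the choice of median or the error of the depth estimate.

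The libraries were checked before the class I genes were read. TET1 itself was at 0.20 FPKM in the HeyC2 control and 1.68 FPKM in HeyC2 TET1, and at 0.43 and 2.42 FPKM in SKOV3, which corresponds to an estimated 14 and 34 fragments in HeyC2 and 29 and 111 in SKOV3. Leukocytes express much class I, and their 8 markers summed to 1.57 to 10.45 FPKM per library, with 4 or 5 of 8 at 0. Of the 8, only LYZ passed the filter. It was at 1.02 (control) and 9.19 FPKM (TET1) in HeyC2, called higher (0.73), and at 1.96 and 2.72 FPKM in SKOV3 (-0.26). Of the carcinoma markers, MUC16 did not exceed 0.05 FPKM and WT1 did not exceed 0.71 FPKM in any library, and CDH1 was at 0 in both HeyC2 libraries. Carcinoma and mesenchymal markers differed between TET1 and control in both lines. In SKOV3, of the 8 carcinoma markers that passed the filter, 2 were called higher (CDH1, 0.96, and PAX8, 0.64) and 3 lower, with a median of 0.06. The lower ones were KRT19 (keratin 19), at 255 FPKM in the control and 0.62 FPKM in TET1, KRT7, at 1537 and 29.55 FPKM, and MSLN (mesothelin), at 10.29 and 0.11 FPKM. EPCAM was at 15.39 and 21.66 FPKM. Of the 5 mesenchymal markers in SKOV3, 2 were called higher and 1 lower. The collagen genes COL1A1 (4.27, 0.32 and 37.22 FPKM) and COL1A2 (1.18, 0.13 and 2.85 FPKM) were higher, and VIM (-0.71) was lower. Both collagen genes passed the filter only through their TET1 value. Among all genes in SKOV3, 20.6% were called higher and 17.9% lower. In HeyC2, of 6 carcinoma markers 3 were called higher (KRT7, 2.04, MSLN, 0.80, and PAX8, 0.68) and 0 lower. Of the 4 mesenchymal markers that passed the filter there, CDH2 (0.73) was called higher, and VIM (-1.27) and FN1 (-1.001) were called lower. Among all genes in HeyC2, 13.0% were called higher and 12.9% lower. Whether the 2 SKOV3 libraries come from the same culture was not resolved, so each SKOV3 value of TET1 against control is a difference between these libraries. The part of these marker differences in the class I values was not tested.

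As a group, the class I genes stayed near the middle of all genes in both lines. In HeyC2, 1 of 9 genes was called higher (HLA-E) and 1 lower (TAP2), where 13.0% of all 12993 genes were called higher and 12.9% lower. The median of the 9 was -0.03, with a range from -0.64 to 0.71. In SKOV3, 0 of 9 were called higher and 1 lower (TAP2 again), where 20.6% of all 13339 genes were called higher and 17.9% lower. The median of the 9 was 0.12, with a range from -0.60 to 0.35. These shares were near or under the background, so the list as a whole showed no shift past 1.5-fold. On the deposited scale, without the median subtracted, all 9 genes would be called higher in HeyC2 and 6 of 9 in SKOV3.

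**Figure D1:**
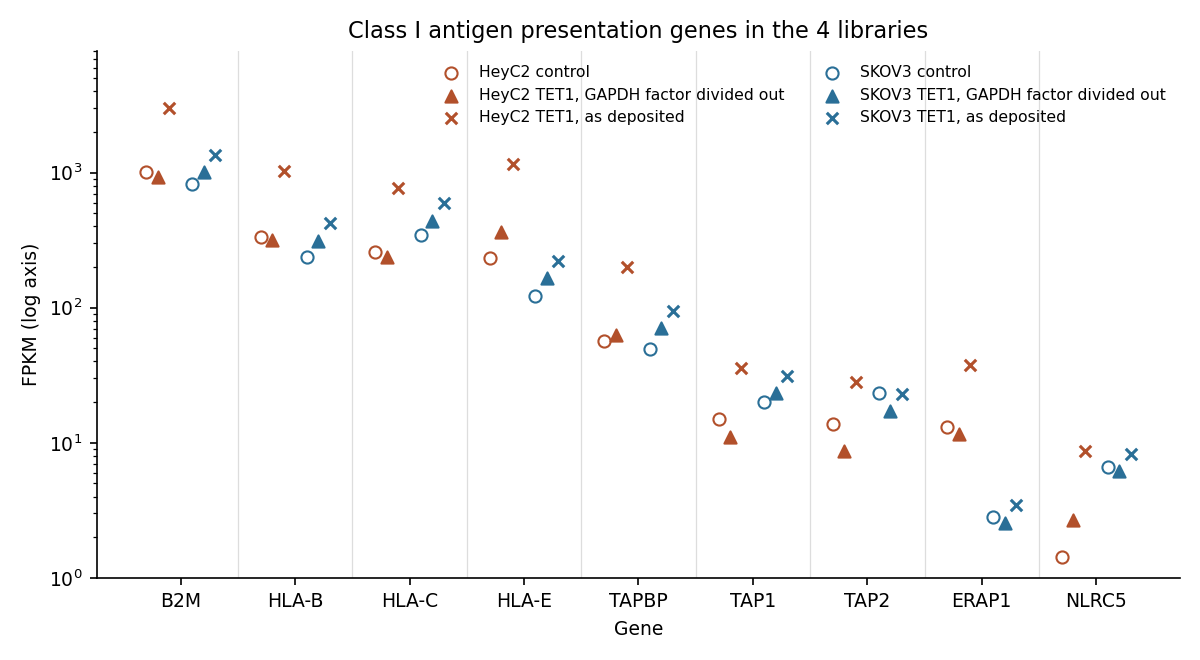
FPKM (log axis) of the 9 genes in the 4 libraries, with 1 point per library and no error bar since each condition has 1 library; TET1 values are shown as deposited (crosses) and after dividing out the GAPDH factor (triangles). B2M was the highest and NLRC5 or ERAP1 the lowest of the 9 in each library, and most triangles lie close to their control circle.

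The classical heavy chains HLA-B and HLA-C, which bind the peptide, lay close to the all-gene median in HeyC2 and somewhat above it in SKOV3. HLA-B (chr6:31321649-31334844, GRCh37) was at 332.7 (control) and 1021 FPKM (TET1) in HeyC2 and at 236.83 and 423.53 FPKM in SKOV3. Relative to all genes this was a change of 0.0053 in HeyC2 (counting interval -0.06 to 0.08) and of 0.25 in SKOV3 (0.17 to 0.33). HLA-C (chr6:31236526-31239907) was at 260.6, 767.1, 343.69 and 591.63 FPKM in the same order. Its relative change was -0.06 in HeyC2 (-0.13 to 0.03) and 0.19 in SKOV3 (0.13 to 0.26). Both genes stayed inside 1.5-fold in both lines on this scale. Without a pseudocount in the ratio and in the median, HLA-B was at -0.16 and HLA-C at -0.22 in HeyC2, outside these intervals. In SKOV3 they were then at 0.18 and 0.13.

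B2M (chr15:45003556-45011049), the shared light chain, was the most abundant of the 9 in each library. It was at 1007 (control) and 3002 FPKM (TET1) in HeyC2 and at 830.18 and 1360 FPKM in SKOV3. It ranked between the 33rd and the 79th gene by FPKM over the 4 libraries, and its relative change was -0.03 in HeyC2 (-0.09 to 0.02) and 0.12 in SKOV3 (0.07 to 0.18). Without a pseudocount in the ratio and in the median, B2M was at -0.20 in HeyC2, outside its interval, and at 0.06 in SKOV3. On the main scale, HLA-B, HLA-C and B2M, the 3 genes with the X2 and Y pair, lay between -0.06 and 0.01 in HeyC2. In SKOV3 they lay between 0.12 and 0.25. The ratio of HLA-B to B2M within a library, which no scaling can alter, was 0.330 (control) and 0.340 (TET1) in HeyC2, and 0.285 and 0.312 in SKOV3.

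HLA-E stood apart from the other heavy chains in HeyC2. HLA-E (chr6:30457286-30461971) presents leader peptides of other class I molecules and is the ligand of the NKG2A receptor of natural killer cells. It was at 233.15 (control) and 1168 FPKM (TET1) in HeyC2 and at 121.74 and 223.16 FPKM in SKOV3. In HeyC2 it was below both HLA-B and HLA-C in the control and above both in TET1, whereas in SKOV3 it was below both in each library. The relative change was 0.71 in HeyC2 (1.64-fold, counting interval 0.66 to 0.77 on the log2 scale), with 9.37% of all genes higher, and 0.28 in SKOV3 (0.20 to 0.37), with 33.9% higher. The call in HeyC2 ended with a pseudocount of 0.1 FPKM (0.56), with 0.01 FPKM (0.54), without one (0.55), with the GAPDH factor divided out first (0.57), as TPM without centring (0.56) and with centring on upper quartiles (0.53), against a threshold of 0.585.

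Ratios between heavy chains do not depend on these settings. The ratio of HLA-E to HLA-B was 0.701 in the HeyC2 control and 1.14 in HeyC2 TET1, a 1.63-fold difference (counting interval 1.53 to 1.74). In SKOV3 it was 0.514 and 0.527, a difference whose counting interval included 1 (0.946-fold to 1.11-fold). The ratio of HLA-E to HLA-C differed 1.70-fold in HeyC2 (1.59 to 1.83) and 1.06-fold in SKOV3 (0.988 to 1.15). By contrast, the ratio of HLA-B to HLA-C differed 1.04-fold in both lines. The difference between the lines was not tested, since there is 1 library per condition.

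**Figure D2:**
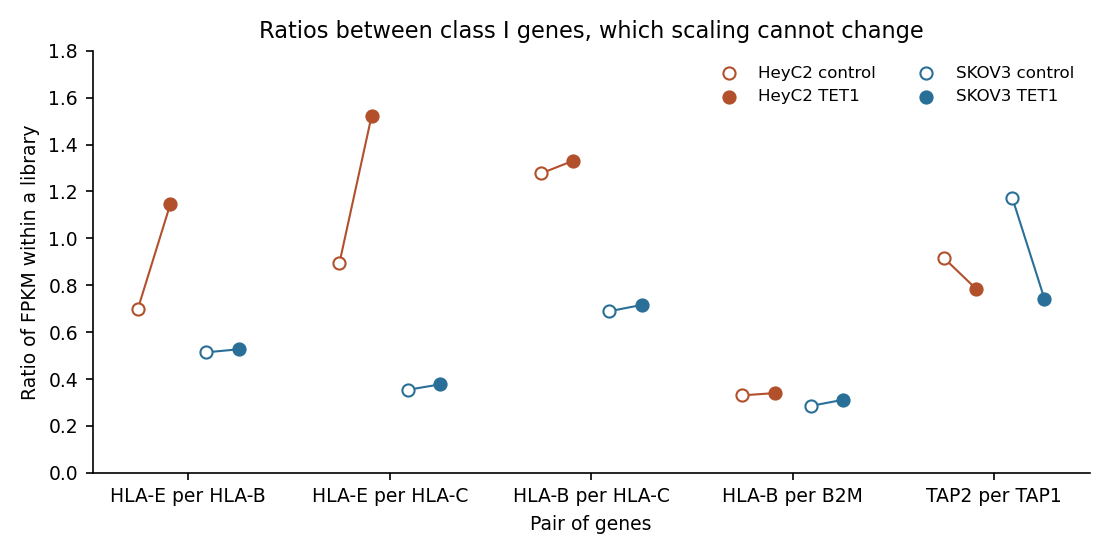
Ratio of the FPKM of 2 genes within 1 library (linear axis from 0), with control (open) and TET1 (filled) joined by a line and 1 library per point. HLA-E per HLA-B was 0.701 in the HeyC2 control and 1.14 in HeyC2 TET1, while HLA-B per HLA-C and HLA-B per B2M were nearly level in both lines; TAP2 per TAP1 was lower in TET1 in both.

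Of the peptide transporter, TAP2 was lower relative to all genes in both lines and TAP1 in neither by 1.5-fold. TAP1 (chr6:32812986-32821593) was at 15.08 (control) and 35.8 FPKM (TET1) in HeyC2 and at 19.96 and 31.22 FPKM in SKOV3. Its relative change was -0.41 in HeyC2 (-0.64 to -0.09), where centring on upper quartiles gave a call of lower (-0.59) and the deposited scale without centring a call of higher (1.19), and 0.03 in SKOV3 (-0.15 to 0.27). TAP2 (chr6:32789610-32806516) was at 13.83, 28.11, 23.43 and 23.17 FPKM. In HeyC2, TAP2 was the lowest of the 9 genes with a relative change of -0.64 (-0.79 to -0.39), which is 1.55-fold lower, and 88.5% of all genes were higher. In SKOV3, TAP2 was again the lowest with -0.60 (-0.75 to -0.46), which is 1.52-fold lower, and 82.8% of all genes were higher.

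The call of TAP2 in HeyC2 held with the smaller pseudocounts (-0.75 and -0.76), with the GAPDH factor divided out (-0.67) and with the correction for GC content and length (-0.61), and it turned to 0.97 as deposited and to 0.35 without a minimum on FPKM. In SKOV3 it ended with a minimum of 5 FPKM (-0.54), with centring on upper quartiles (-0.47), without a minimum (-0.10) and in each setting without centring (-0.42 to -0.015). Set against B2M of the same library, TAP2 was 0.682-fold of its control ratio in HeyC2 (0.590 to 0.787) and 0.604-fold in SKOV3 (0.540 to 0.675). The ratio of TAP2 to TAP1 was 0.917 and 0.785 in HeyC2, a difference whose counting interval included 1 (0.676 to 1.08), and 1.17 and 0.742 in SKOV3, where it did not (0.528 to 0.758). TAP2 is to be read with care: 34.1% of its 150-base words also occur in an overlapping annotated gene, ENSG00000250264, and how the counting divided such reads is not known. TAP1 overlaps PSMB9 on the opposite strand in the annotation, and the kit is not stated to keep strand.

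TAPBP (chr6:33267471-33282061) was at 57.13 (control) and 201.92 FPKM (TET1) in HeyC2 and at 49.29 and 95.33 FPKM in SKOV3. The relative change was 0.19 in HeyC2 (0.10 to 0.32) and 0.35 in SKOV3 (0.25 to 0.48), inside 1.5-fold in both. Set against B2M, TAPBP was 1.19-fold of its control ratio in HeyC2 (1.09 to 1.29) and 1.18-fold in SKOV3 (1.08 to 1.29). The relative changes of TAP1, TAP2, TAPBP and B2M, the 4 genes with ISRE letters, ran from -0.64 to 0.19 in HeyC2 and from -0.60 to 0.35 in SKOV3.

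**Figure D3:**
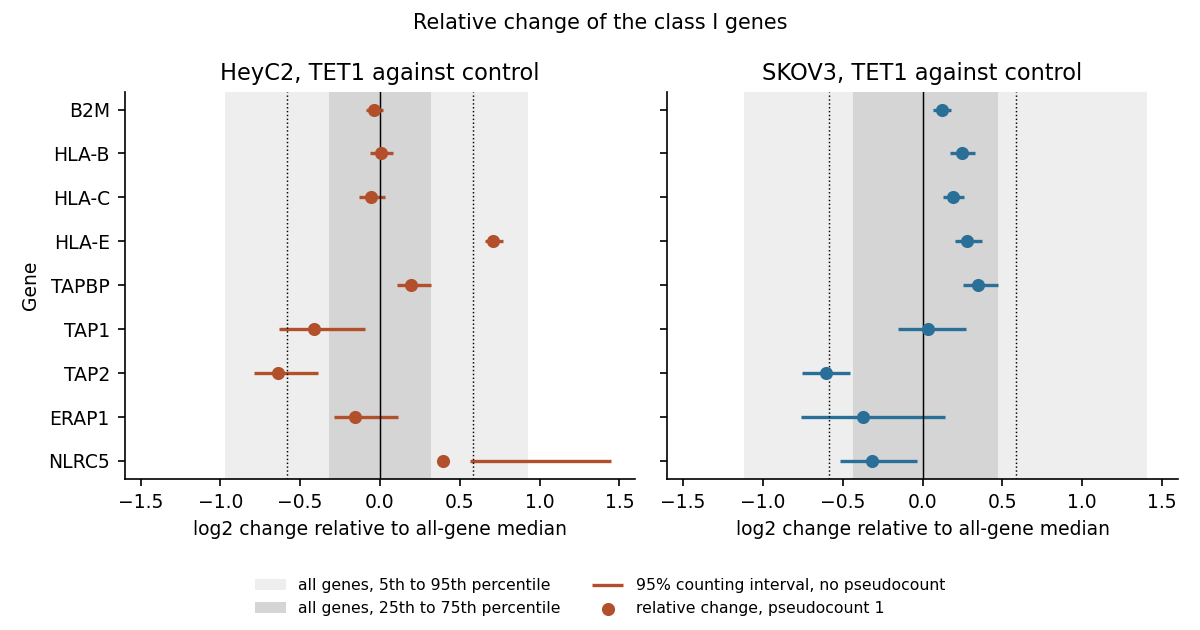
Relative log2 change of the 9 genes, TET1 against control, in HeyC2 (left) and SKOV3 (right); points use a pseudocount of 1, bars are 95% counting intervals without it, grey bands hold 50% and 90% of all genes, and dotted lines mark 1.5-fold. TAP2 lies at -0.64 and -0.60 and HLA-E at 0.71 and 0.28, and the point of NLRC5 in HeyC2 lies outside its bar because its control value is near the pseudocount.

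ERAP1 (chr5:96096514-96143803), which shortens peptides to the length class I can bind, was at 13.14 (control) and 37.68 FPKM (TET1) in HeyC2 and at 2.83 and 3.44 FPKM in SKOV3. It differed far more between the lines than between TET1 and control. The relative change was -0.16 in HeyC2 (-0.29 to 0.11) and -0.38 in SKOV3 (-0.76 to 0.14), the latter on an estimated 93 and 78 fragments.

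NLRC5 (chr16:57023397-57117443), the class I transactivator, was the least abundant of the 9 in HeyC2. It was at 1.43 (control) and 8.73 FPKM (TET1) in HeyC2 and at 6.66 and 8.26 FPKM in SKOV3. Its relative change was 0.39 in HeyC2 and -0.31 in SKOV3 (-0.52 to -0.04), neither past 1.5-fold. The HeyC2 value depended on the pseudocount, since the control is near 1 FPKM: without a pseudocount and with the same median its counting interval was 0.57 to 1.45, on an estimated 70 and 122 fragments, and with a pseudocount of 0.1 FPKM it was 0.77, past the threshold. Set against B2M, NLRC5 was 2.05-fold of its control ratio in HeyC2 (1.51 to 2.80) and 0.757-fold in SKOV3 (0.637 to 0.899). The promoters of HLA-B, HLA-C and B2M hold the letters of the boxes that NLRC5 acts through. These 3 genes lay between -0.06 and 0.01 in HeyC2 and between 0.12 and 0.25 in SKOV3. The letters were chosen after these values were seen, and a link between NLRC5 and the 3 genes was not tested.

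Between the 2 control libraries, which carry the empty plasmid only, the 9 genes ranged more widely than between TET1 and control, from -2.15 to 1.39, and so did all genes (SD of 1.41, against 0.63 in HeyC2 and 0.82 in SKOV3). Here the all-gene median was 0.27 over 12488 genes. NLRC5 was called higher in the SKOV3 control than in the HeyC2 control (1.39), and HLA-B (-0.76), HLA-E (-1.20) and ERAP1 (-2.15) were called lower, 1 and 3 of 9 genes, where 28.6% of all genes were called higher and 29.0% lower. ERAP1 was 4.44-fold lower and HLA-E 2.30-fold lower in SKOV3. The call of HLA-B ended without centring (-0.49), as TPM (-0.46) and without a minimum on FPKM (-0.49). HLA-F, a heavy chain outside the 9, was at 0.10 FPKM in the HeyC2 control and 60.34 FPKM in the SKOV3 control. HLA-F kept this difference in the TET1 libraries, at 0.58 and 81.52 FPKM. HLA-B is highly polymorphic. How reads of alleles that differ from hg19 were counted is not given for any of these genes, so the part of allele differences in the levels of the 2 lines was not tested.

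The order of the 9 genes by FPKM differed between the lines and between the libraries of each line. In the HeyC2 control it ran from B2M through HLA-B, HLA-C, HLA-E, TAPBP, TAP1, TAP2 and ERAP1 to NLRC5. In HeyC2 TET1, HLA-E stood second and ERAP1 (37.68 FPKM) stood above TAP1 (35.8 FPKM) and TAP2 (28.11 FPKM). In SKOV3, HLA-C stood above HLA-B in both libraries, and ERAP1 was last in both. TAP2 stood above TAP1 in the SKOV3 control and below it in SKOV3 TET1 (31.22 FPKM for TAP1 and 23.17 FPKM for TAP2). TAP1, TAP2 and ERAP1 in the HeyC2 control (15.08, 13.83 and 13.14 FPKM) and TAP1 and TAP2 in the SKOV3 control (19.96 and 23.43 FPKM) were close neighbours whose spread between cultures is unknown.

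The other genes of the pathway were read next from lists of general knowledge, which were chosen with earlier results of these data known. Of 12 further loading and trimming genes, 1 was called higher and 2 lower in HeyC2 (median -0.16), and 0 higher and 3 lower in SKOV3 (median -0.28), counts near the all-gene shares of 13.0% and 12.9% in HeyC2 and 20.6% and 17.9% in SKOV3. HM13, the signal peptide peptidase that releases the leader peptides HLA-E presents, was called higher in HeyC2 (0.68, 381.02 and 1869 FPKM) and lower in SKOV3 (-0.74, 267.1 and 241.02 FPKM). In HeyC2, TAPBPL, a tapasin-related peptide editor, was called lower (-1.31), as was LNPEP, an aminopeptidase (-0.80). In SKOV3, the chaperone CALR was called lower (-1.23, 769.03 and 492.64 FPKM), as was the oligopeptidase THOP1 (-1.01).

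The proteasome genes were read in 2 lists. Of the 5 immunoproteasome and activator genes, 0 were called higher and 1 lower in HeyC2 (PSME2, -0.72, median of the 5 -0.13), and 1 higher and 0 lower in SKOV3 (PSME1, 0.63, median 0.34). Of the 3 constitutive catalytic subunits, 0 were called in HeyC2 (median -0.28), and PSMB5 (-1.20) and PSMB7 (-0.83) were called lower in SKOV3, 2 of 3 (median -0.83). For all genes the shares called higher and lower were 13.0% and 12.9% in HeyC2 and 20.6% and 17.9% in SKOV3. PSMB5 is the constitutive counterpart of PSMB8 and PSMB7 that of PSMB10. PSMB9, whose start lies 488 bases from that of TAP1 on the opposite strand, was at 3.21, 11.42, 11.88 and 23.72 FPKM, a relative change of -0.05 in HeyC2 and 0.35 in SKOV3. PSMB8 was at 12.56, 36.9, 47.19 and 80.03 FPKM. Between the controls, 2 of the 5 were called higher in SKOV3 (PSMB8, 1.56, and PSMB9, 1.35) and 2 lower (PSMB10, -1.34, and PSME2, -1.33), with a median of -0.55. In that comparison 28.6% of all genes were called higher and 29.0% lower.

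**Figure D4:**
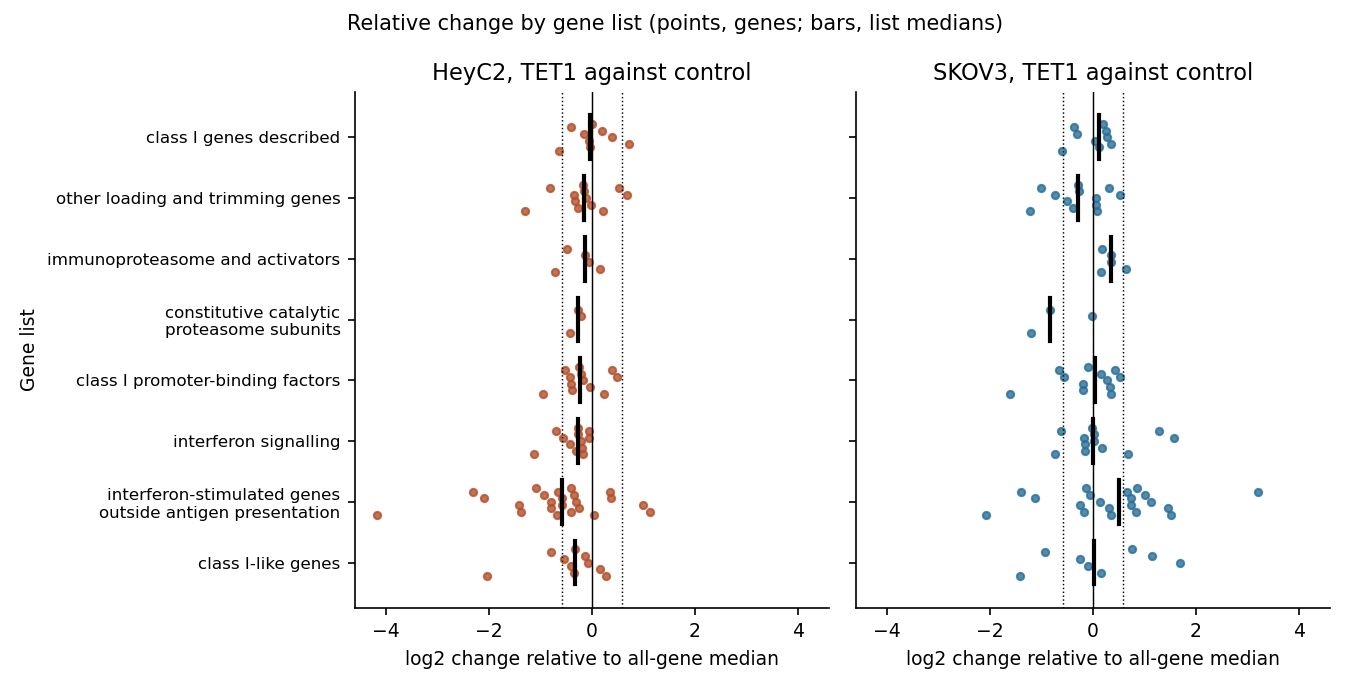
Relative log2 change of each gene that passed the filter, by list, in HeyC2 (left) and SKOV3 (right); each point is 1 gene, black bars are list medians and dotted lines mark 1.5-fold. The interferon-stimulated genes spread widest, with medians of -0.59 in HeyC2 and 0.51 in SKOV3, while the 9 class I genes stay at -0.03 and 0.12.

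The factors that bind class I promoters and the interferon signalling genes are set beside the same all-gene shares, 13.0% higher and 12.9% lower in HeyC2 and 20.6% and 17.9% in SKOV3. Of 12 factors, 0 were called higher and 1 lower in HeyC2 (IRF2, -0.95, median -0.23), and 0 higher and 2 lower in SKOV3 (NFKB1, -1.61, and NFYC, -0.67, median 0.03). NFKB1, the p50 precursor of NF-kappaB, was at 16.78 FPKM in the SKOV3 control and 7.74 FPKM in SKOV3 TET1. Of 12 interferon signalling genes, 0 were called higher and 2 lower in HeyC2 (SOCS1, -1.12, and JAK2, -0.70, median -0.27). In SKOV3, 3 were called higher and 2 lower (median 0.0031): IRF9 (1.57, 4.58 and 23.99 FPKM) and STAT2 (1.28, 7.12 and 28.69 FPKM), 2 parts of the ISGF3 complex that binds ISRE letters, and the receptor IFNAR2 (0.67) were higher, and the receptor IFNGR1 (-0.74) was lower. The other called gene was SOCS1 (-0.63), an inhibitor of JAK kinases, named after its value was seen.

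Interferon-stimulated genes outside antigen presentation ranged more widely than the class I genes. In HeyC2, 2 of the 23 that passed the filter were called higher and 12 lower, with a median of -0.59, where 13.0% of all genes were called higher and 12.9% lower. OAS1 (-4.18), OAS3 (-2.30) and OAS2 (-2.11), the sensors of double-stranded RNA that activate RNase L, and IFI27 (-1.41) were the lowest. In SKOV3, 10 of 20 were called higher and 3 lower, with a median of 0.51, where 20.6% of all genes were called higher and 17.9% lower. IFITM1 (3.21, 6.19 and 98.8 FPKM), IFIT1 (1.52) and IFI6 (1.46) were the highest, while IFI27 (-2.09) was lower. B2M, TAP1, TAP2 and TAPBP, the class I genes with the ISRE letters, lay between -0.60 and 0.35 in SKOV3. A link between them and these values was not tested. The filter can keep a low gene for the library in which it is high, and part of these counts rests on such genes: OAS1 was at 9.34 and 0.74 FPKM in HeyC2. The counts were taken on the main setting only. The HeyC2 median was -0.56 and -0.48 with pseudocounts of 0.1 and 0.01 FPKM and -0.48 without one. It was -0.43 with a minimum of 5 FPKM and -0.39 with the GAPDH factor divided out before centring. With the correction for GC content and length it was -0.64, and with upper quartiles -0.77.

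Class II and class I-like genes were read as neighbours of the pathway. Of 13 MHC class II genes, 1 had a mean of at least 1 FPKM in HeyC2 and 2 did in SKOV3, and only HLA-DMA was called higher (SKOV3, 0.94, 1.78 and 7.01 FPKM). HLA-DRA, the class II alpha chain, was listed at 0 in all 4 libraries. Of 14 class I-like genes, 10 passed in HeyC2, with 0 called higher and 2 lower (RAET1E, -2.04, and HFE, -0.79), beside the all-gene shares of 13.0% and 12.9%. Of the 8 that passed in SKOV3, 3 were called higher and 2 lower, beside 20.6% and 17.9%. There ULBP1 (1.70, 0.55 and 6.57 FPKM), a ligand of the NKG2D receptor, and FCGRT (1.14, 0.10 and 2.64 FPKM), the neonatal Fc receptor, were higher. Both passed the filter only through the TET1 library in which they are high, so their calls add little to the count. The NKG2D ligands MICA (-1.42, 36.76 and 20.24 FPKM) and MICB (-0.93) were lower. The third higher gene was PROCR (0.76), named after its value was seen.

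In the genome, 6 of the 9 genes lie in the MHC region of chromosome 6 (chr6:29523406-33377673, GRCh37, 3.85 Mb), which holds 180 genes of the tables. The 93 other genes of the region that passed the filter in HeyC2 had a median relative change of -0.03, with 13 called higher and 11 lower, and the 6 class I genes had a median of -0.02. In SKOV3 the 98 others had a median of -0.11, with 18 called higher and 24 lower, and the 6 class I genes had a median of 0.22. For all genes the shares called higher and lower were 13.0% and 12.9% in HeyC2 and 20.6% and 17.9% in SKOV3. NOTCH4 (2.10) and LY6G5B (1.76) were the highest and PSMB8-AS1 (-1.49) and KIFC1 (-1.46) the lowest in HeyC2. In SKOV3 COL11A2 (1.67) and CFB (1.62) were the highest and TNF (-2.70) and HLA-F-AS1 (-1.75) the lowest. PSMB8-AS1 and HLA-F-AS1 are antisense genes whose reads cannot be told from those of their partners without strand. PSMB8 lies between TAP2 and TAP1, and PSMB9 overlaps TAP1, in the annotation.

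**Figure D5:**
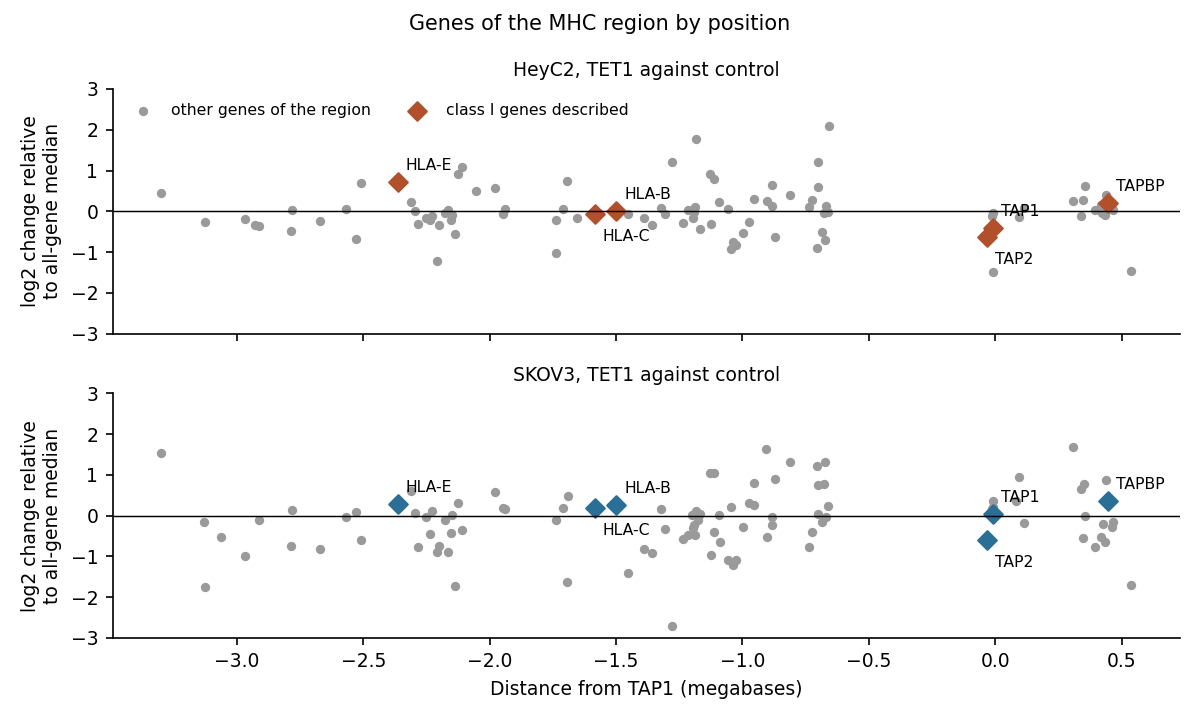
Relative log2 change of each gene of the MHC region that passed the filter against its distance from TAP1 in megabases, in HeyC2 (top) and SKOV3 (bottom); diamonds are the 6 class I genes of the region and grey points the others. The diamonds lie among the grey points, whose medians are -0.03 and -0.11.

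Among the 5 genes whose pattern over the 4 libraries was most like the mean of the 9 were OGG1, TIMM22, WAC and SACM1L. Likeness was the Euclidean distance between log2(FPKM + 1) profiles centred on each library's median and on the gene's own mean, over 4 libraries and 8652 other genes with a mean of at least 10 FPKM, and the 5 lay within 0.0185 to 0.0551. Of the 9, B2M came closest to their mean (0.157, with 89 other genes closer), and ERAP1 was farthest (1.94, with 7501 closer). With 4 values per gene, closeness of this kind is shared by many genes.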

How the data were processed

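RNA-seq of HeyC2 and SKOV3, control and TET1-reprogrammed, was analysed, with 1 library per condition. Per the labels, TruSeq libraries were sequenced as paired 150-base reads, aligned to hg19 with Bowtie2 (version 2.2.6) and quantified with RSEM (version 1.2.17), and the authors deposited FPKM in 1 table per line. The gene annotation and the GAPDH scaling are not given in the sources used here. The scale factor was recovered from the value steps: control values move in steps of 0.01 FPKM, and 100% of the TET1 values below 40 FPKM were multiples of that step times the factor.

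Relative changes were computed with a pseudocount of 1 FPKM over genes with a mean of at least 1 FPKM. The pseudocount pulls the deposited change of a low gene toward 0, which lies below the all-gene median in each comparison. Relative rises of low genes are then understated, and a low gene near the median can read as a fall. HLA-DMA in HeyC2 (0.28 and 2.52 FPKM) was at -0.15, and at 1.39 without a pseudocount in the ratio and in the median. No p-value was computed. Depth was estimated from genes with 1 annotated transcript. Intervals of single genes are exact binomial (Clopper-Pearson), and those of ratios between genes are exact conditional odds ratios. GENCODE on GRCh37 gave positions, lengths and GC content (22638 of 26506 symbols, 85.4%). The gene members and lists were chosen with earlier results of these data known. Named genes are all members, at most 4 per list and line past 1.5-fold, the 5 most alike and the 2 highest and 2 lowest of the region. Some named items are not reported here. The scripts were tested on simulated data. Alternatives were pseudocounts of 0.1 and 0.01, none, no minimum or 5 FPKM, other centrings, TPM, GC and length correction in 20 bins, and thresholds of 2-fold and 1.2-fold. Python 3.11.15, numpy 2.4.6, pandas 2.3.3, scipy 1.17.1 and matplotlib 3.10.9 were used.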

Additional observations from a re-analysis of the deposited data

Results flagged for a closer look

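Several class I genes lay on opposite sides of the all-gene median in the 2 cell lines. These differences (SKOV3 minus HeyC2, of relative log2 changes) were not tested, since each condition has 1 library. NLRC5 was at 0.39 in HeyC2 and -0.31 in SKOV3, a difference of -0.71. TAP1 was at -0.41 and 0.03, a difference of 0.45. HLA-C was at -0.06 and 0.19, a difference of 0.25, and B2M at -0.03 and 0.12, a difference of 0.16. With the ratio taken without a pseudocount, TAP1 was at -0.0098 in SKOV3 and so on the same side in both lines.

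Of the named genes outside the 9, several were past 1.5-fold in opposite directions in the 2 lines, also untested. HM13 differed by -1.42 between the lines, OAS1 by 5.30 and IFIT1 by 2.11. Of the carcinoma markers, KRT7 differed by -8.28 and MSLN by -4.73.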

How the results depend on the processing

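No paired analysis was possible because each comparison is between 1 library and 1 library, which share fewer than 2 replicate numbers. The counts below are of the 9 class I genes called higher and lower, and medians are of their relative log2 changes. Without a minimum, the all-gene median also covers genes at 0 in both libraries: 7 higher and 0 lower with a median of 0.95 in HeyC2, 5 and 0 with 0.63 in SKOV3, and 2 higher with a median of -0.21 between controls. As deposited and not centred, HeyC2 had 9 higher and 0 lower (median 1.57), SKOV3 6 and 0 (0.71), and the controls 2 higher (-0.21). TAP2 in HeyC2 turned to 0.97 as deposited and to 0.35 without a minimum, the interferon-stimulated genes in HeyC2 to medians of 1.02 and 0.32, and the class II genes in SKOV3 to -0.080 without a minimum. With the GAPDH factor divided out and no centring, HeyC2 had 2 higher, SKOV3 0 lower (median 0.28), and the controls 2 higher (-0.21). As TPM, HeyC2 had a median of -0.19, SKOV3 0 lower with 0.34, and the controls 2 higher with -0.18. With upper quartiles, HeyC2 had 0 higher and 2 lower (-0.21) and SKOV3 0 lower (0.26). The HeyC2 median was -0.19 and -0.21 with pseudocounts of 0.1 and 0.01, -0.20 without one (an alternative chosen after seeing the data) and -0.18 with the GAPDH factor divided out before centring, where 0 were higher. A minimum of 5 FPKM left 0 lower in SKOV3 and 0 higher between controls, where NLRC5 was no longer included. At 2-fold, HeyC2 had 0 higher and 0 lower and SKOV3 0 lower. At 1.2-fold, HeyC2 had 2 and 2, SKOV3 2 and 3, and the controls 2 and 5. Where no construction is named, the cause was not tested. Counting intervals were widest for NLRC5 in HeyC2 and for ERAP1 in SKOV3.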
